A study of Mus musculus with 48 samples.

Results

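Skin fibroblasts are the collagen-producing cells of the dermis. They were taken here as the cells that the deposited annotation places in skin and names fibroblasts, and there were 324 of them among 12096 annotated cells of all organs, 128 from healthy mice and 196 from mice with collagen-induced arthritis (CIA). The cells were profiled by Seq-Well, a microwell method of single-cell RNA sequencing (scRNA-seq) in which each captured RNA molecule is counted once by its unique molecular identifier (UMI) near its 3′ end. Skin was taken from 4 healthy mice (H3, H4, H6 and H7) and 6 CIA mice, all male DBA1/J animals aged 8 to 12 weeks. CIA was induced with 100 µg bovine collagen II in complete Freund's adjuvant, injected into the skin near the base of the tail, with a booster on day 20 in incomplete Freund's adjuvant. The labels give severe arthritis with a total score of 8 to S1, S2 and S3, and mild arthritis with scores of 4 to 5, 3 to 4 and 2 to 3 to S5, S6 and S8. Per the study's methods, the control mice were given phosphate-buffered saline in place of collagen and adjuvant, so the immunization and the arthritis cannot be told apart. Mice H3, S1, S2 and S3 carry another experiment prefix in the labels than H4, H6, H7, S5, S6 and S8, so that severity and experiment cannot be told apart either. Organs were frozen, minced and digested with an enzyme of their own, collagenase I for skin, collagenase II for muscle and collagenase IV for joint.

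Dermal fibroblasts build a matrix of type I and III collagen fibrils, which small leucine-rich proteoglycans such as decorin and lumican help to space, and they renew it with matrix metalloproteinases and cathepsins. They differ by depth: papillary cells lie under the epidermis, reticular cells fill the lower dermis, dermal papilla and sheath cells surround the hair follicle, and fascia cells lie beneath. They also answer inflammation by releasing chemokines that draw neutrophils and monocytes. These roles are the frame for the gene lists described here.

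The cells per mouse numbered 27, 29, 44 and 28 in H3, H4, H6 and H7 and 53, 64, 22, 23, 8 and 26 in S1, S2, S3, S5, S6 and S8. Summed over cells, a mouse contributed 5579 (S6) to 75031 UMIs (S2). S6, with 8 cells, fell below the minimum of 10 cells and entered no test of expression unless it is named. Levels are given as UMIs of a gene per 1000000 UMIs of the summed cells (CPM), which are not divided by gene length, and p-values measure the spread between mice. A change in such a sum can be a change in how many cells carry a gene or in how much each carries, and these cannot be told apart. Before any result, 3 mice stood apart: S2 gave more cells and UMIs than any other mouse, S6 gave the fewest and the highest collagen levels, and the healthy mouse H3 shares the experiment of the severe mice. One skin fibroblast barcode occurred a second time, in another library, and no doublets were removed here.

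The labelled cells were described by 12 fibroblast markers (*Col1a1*, *Col1a2*, *Col3a1*, *Dcn*, *Lum*, *Sparc*, *Gsn*, *Fbln2* and others). Of these, 8 are the study's own markers for fibroblasts, so the values cannot serve as an independent test of the label. They summed to 29616 CPM in the skin fibroblasts and 984 CPM in the 711 cells annotated as Basal III, the keratinocytes of the same mice. Of the 324 cells, 232 (71.6%) held at least 5 UMIs of these markers and 38 (11.7%) held at most 1. The 38 had a median of 561 UMIs against 674.5 in the 232, and they held 6905 CPM of a 16-gene keratinocyte list against 2166 CPM. Most cells thus carried the label's markers, and a minority was shallow or carried few of them.

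**Figure D1:**
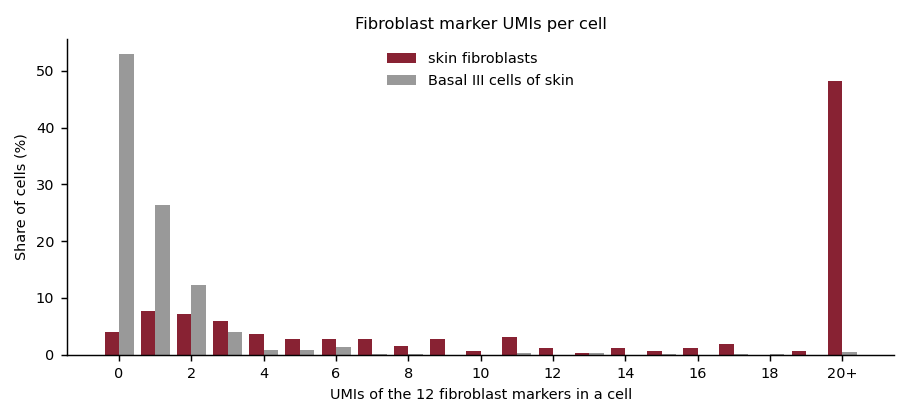
UMIs of the 12 fibroblast markers in each cell (x axis, with 20 or more in the last bar) against the share of cells in percent (y axis), for the 324 skin fibroblasts and the 711 Basal III cells of skin. Most Basal III cells sit at 0 or 1, and the tallest fibroblast bar is at 20 or more.

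Keratinocyte RNA was present in the fibroblast sums and differed between mice. At least 2 UMIs of the keratinocyte list were found in 84 cells (25.9%), from 5.66% of the cells in S1 and 6.90% in H4 to 54.5% in S3 and 71.4% in H7. The list summed to 820 to 4519 CPM in healthy mice and 838 to 6673 CPM in CIA mice, ranges that overlap, and its defining genes *Krt14* and *Lgals7* were detected. Its part in the results on expression was not tested by any model, but 2 alternatives leave such cells out, and edgeR called 0 genes for CIA against healthy in both. Macrophage transcripts were at most 370 CPM in any mouse, with *Adgre1*, *C1qa* and *Mrc1* at 0, and endothelial transcripts reached 998 CPM in S3 and at most 360 CPM in the other mice, with *Kdr* and *Tie1* at 0.

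Thinned to 400 UMIs, more fibroblasts than Basal III cells held the matrix genes, which sets the level that free RNA can give (median depths before thinning 694 and 797 UMIs). *Col1a2*, a chain of type I collagen, was found in 54.0% of fibroblasts (95% exact interval 48.4 to 59.5) and 3.09% of Basal III cells (63.9% and 6.05% without thinning). *Dcn*, which encodes decorin, was found in 53.4% and 8.58%, and *Mmp3*, which encodes a matrix metalloproteinase (stromelysin), in 39.8% and 8.58%. Rarer genes also stood above this background, among them *Inhba*, a subunit of activin A, in 12.7% and 2.25%, *a*, the agouti pigment signal of the dermal papilla, in 7.72% and 0.42%, and the anion exchanger *Slc26a7* in 6.79% and 0 of 711. The intervals cover counting error only. *S100a10* (45.4% and 35.6%) and *Lgals3* (39.5% and 36.3%) were in both cell types at similar shares.

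Cells that held a UMI of *a*, *Inhba*, *Slc26a7* or *Igfbp3* were low in the 12 fibroblast markers. The markers summed to 5092 CPM in the 47 cells with *a* and 37212 CPM in the others, and to 7087 CPM in the 65 cells with *Inhba* and 39167 CPM in the others. For *Slc26a7* these values were 6796 and 34547 CPM, and for *Igfbp3*, which binds insulin-like growth factors, 5510 and 37466 CPM. Cells with a UMI of these genes were deeper, with median UMIs of 1170 to 1242 against 646 to 657. In contrast, the markers differed less between cells with and without *Mmp3*, at 31148 and 27783 CPM. This is a description of cells pooled over mice, with no test.

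The fibroblast share of annotated skin cells was 32.5, 43.3, 32.6 and 30.8% in H3, H4, H6 and H7. It was 39.0, 28.1, 15.1, 14.5, 25 and 28.9% in S1, S2, S3, S5, S6 and S8. The healthy mice averaged 34.8% ± 5.72 (SD, n = 4) and the CIA mice 25.1% ± 9.27 (n = 6), and the groups overlap. The difference of -9.72 percentage points did not pass (two-sided exact permutation test, p = 0.119, smallest possible 0.00476); without S1, the CIA mouse of the highest share, it was -12.5 points (p = 0.0238, exact permutation test). Median UMIs per fibroblast (633.5 ± 54.7, n = 4, and 697 ± 102, n = 5; exact permutation p = 0.310) and the mitochondrial share of UMIs (12.8% ± 1.93 and 11.3% ± 1.98; exact permutation p = 0.262) overlapped as well.

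The main question of the design is whether dermal fibroblasts of CIA mice differ from those of healthy mice. The structural matrix genes were not shifted together. *Col1a1*, the other chain of type I collagen, stood at 2592, 12192, 5068 and 2484 CPM in H3, H4, H6 and H7 and at 11368, 5105, 8775, 2892 and 1729.9 CPM in S1, S2, S3, S5 and S8, with 21151 in S6. H4 and S1 were the highest tested mice of their groups and S8 the lowest of all, so the groups overlap fully. The edgeR log2 fold change of CIA over healthy was 0.21 (SE 0.55, adjusted p = 0.946).

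*Col3a1*, the chain of type III collagen, was at 4179, 7803, 2335 and 1189 CPM in H3, H4, H6 and H7 and at 4956, 5491, 4256, 2336 and 1983 CPM in S1, S2, S3, S5 and S8. The lowest and the highest of these 9 mice were both healthy. Its log2 fold change was 0.08 (SE 0.46, adjusted p = 0.957), and that of *Col1a2* was -0.23 (SE 0.47, adjusted p = 0.921). With S6 or in the experiment of H4, H6, H7, S5 and S8 alone, the sign of a collagen gene could turn: *Col1a1* was at -1.52 in that experiment (adjusted p = 0.542).

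*Dcn* ranged from 3436 to 9416 CPM over the healthy mice and from 1524 to 7965 CPM over the 5 tested CIA mice (log2 fold change -0.45, SE 0.44, adjusted p = 0.793). *Sparc*, a collagen-binding matricellular protein, ranged from 1639 to 6606 CPM and from 1477 to 5097 CPM (-0.19, SE 0.42, adjusted p = 0.929). *Lum*, which encodes lumican, ran from 323 to 1286 CPM in healthy mice and from 127 (S8) to 2539.9 CPM (S1) in CIA mice. *Fbln2*, an elastic fibre component, was low at 88.7 to 373 CPM in healthy and 105 to 389 CPM in tested CIA mice. The groups overlap for all 4 genes. *Gsn*, which encodes the actin-severing protein gelsolin, was at 5396 CPM in H3 and 925 to 1507 CPM in the other healthy mice, against 573 to 1561 CPM in tested CIA mice. Its log2 fold change of -1.13 (SE 0.46, adjusted p = 0.493) moved to -0.34 without H3.

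**Figure D2:**
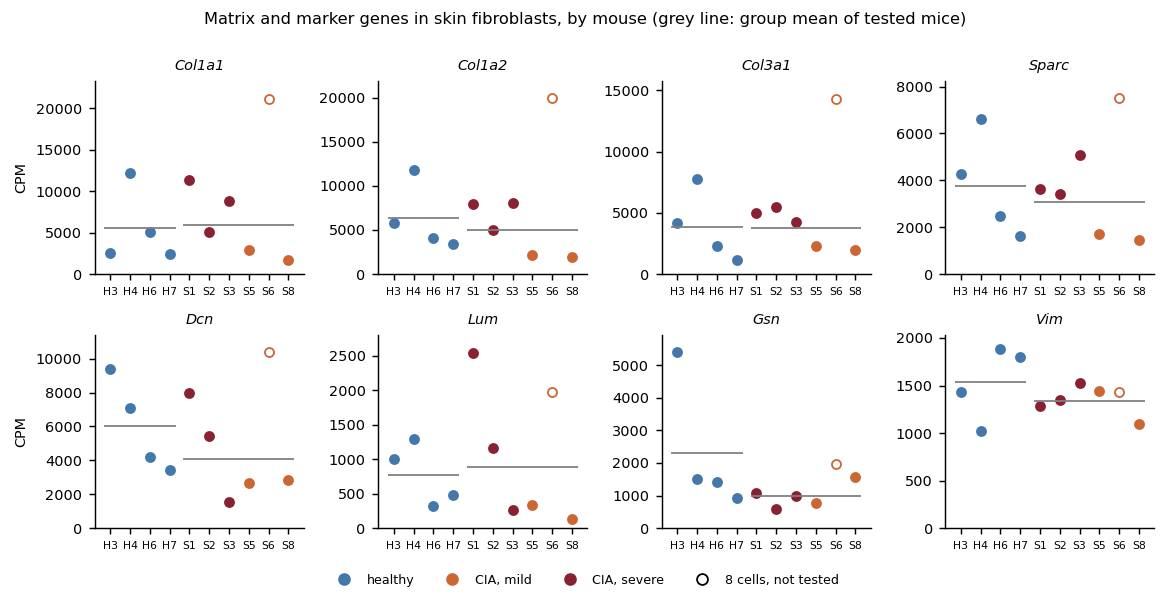
CPM (y axis, from 0) of 8 matrix and marker genes in skin fibroblasts, one point per mouse, coloured by group, with S6 (8 cells) as an open circle and grey lines at the means of tested mice. The healthy and CIA points overlap for each gene, and S6 lies above the other mice for *Col1a1*, *Col1a2*, *Col3a1*, *Sparc* and *Dcn*.

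Across the 349 genes with enough counts to test, edgeR called 0 higher and 0 lower in CIA (0% in each direction, adjusted p below 0.05), and 31 (8.88%) had an unadjusted p below 0.05. DESeq2 called 0 higher and 1 lower. Few matrix genes were deep enough to test: 3 of 11 fibrillar collagens (median log2 fold change 0.08), 4 of 13 proteoglycans (-0.30), 3 of 26 matricellular and adhesive genes (-0.19), 7 of 26 matrix turnover genes (-0.38) and 1 of 17 elastic fibre genes (0.10), beside a median of 0.01 over all genes tested. Of all these members 1 had an unadjusted p below 0.05, the cathepsin gene *Ctsl*, beside 4.58% of all genes higher and 4.3% lower at that p. No member of the collagen processing, other collagens, upper dermis, fascia or complement lists could be tested, nor of the T cell, macrophage, endothelial, Schwann cell, granulocyte and erythroid lists.

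The gene with the smallest p was *S100a10*, the partner of annexin A2 at the plasma membrane (chromosome 3, 93555080 to 93564643, GRCm38). It stood at 2539, 2483, 3229 and 2881 CPM in H3, H4, H6 and H7 and at 986, 973, 1051, 1724 and 1561 CPM in S1, S2, S3, S5 and S8, with 1613 in S6. All CIA mice were below all healthy mice, and the severe mice were lowest. The log2 fold change of -1.15 (SE 0.23) gave an edgeR adjusted p of 0.0763, above the threshold, while DESeq2 called it at -1.17 (adjusted p = 0.0166, range over 21 alternatives 0.0166 to 0.576). Without cells of 2 or more keratinocyte UMIs *S100a10* was at -0.98 (adjusted p = 0.539), and in the experiment of H4, H6, H7, S5 and S8 alone at -0.85 (adjusted p = 0.576). In Basal III cells of the same mice it ranged from 1110.5 to 1835 CPM in healthy and from 1051 to 1569 CPM in CIA mice, which overlap. The means there, 1590 and 1278 CPM, differed in the same direction as in the fibroblasts.

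*Lgals3*, which encodes the carbohydrate-binding galectin-3, was at 2857, 2305, 2087 and 3383 CPM in H3, H4, H6 and H7 and at 962, 986, 1576, 1391 and 1646 CPM in S1, S2, S3, S5 and S8, and no UMI was counted in S6. The 2 groups did not overlap (log2 fold change -1.03, SE 0.26, adjusted p = 0.152). *Nupr1*, a stress-responsive chromatin protein, was at 741, 709, 646 and 899 CPM in healthy and 148, 359.9, 158, 278 and 506 CPM in the same tested CIA mice (-1.33, SE 0.35, adjusted p = 0.152), again without overlap. *Ctsl*, the lysosomal protease cathepsin L, spanned only 1217 to 1348 CPM in healthy and 368 to 946 CPM in CIA mice (-0.94, SE 0.27, adjusted p = 0.266). *Ubb*, one of the polyubiquitin genes, spanned 8041 to 10108 CPM and 4361 to 7676 CPM (-0.64, SE 0.23, adjusted p = 0.474). None of these passed the edgeR threshold; among the 349 genes, 10 (2.87%) were lower without overlap and 4 (1.15%) higher.

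In the other direction, *Mrpl33*, a protein of the mitochondrial ribosome, was at 159, 310.3, 124 and 185 CPM in H3, H4, H6 and H7 and at 469, 679.7, 525, 445 and 338 CPM in S1, S2, S3, S5 and S8 (log2 fold change 1.45, SE 0.37, adjusted p = 0.152). *Apod*, a lipid carrier of dermal fibroblasts, was at 264, 443, 273 and 264 CPM and at 1258, 1039.6, 420.4, 834 and 295 CPM (1.43, SE 0.43, adjusted p = 0.271), with 3406 CPM in S6. The S6 value rests on 1 cell, which held 17 of its 19 UMIs. S1, S2 and S5 were above all healthy mice for *Apod*, and S3 and S8 were not. The predicted transcripts *Gm10076* (0.87, adjusted p = 0.467) and *Gm4342* (0.76, adjusted p = 0.474), the latter a processed pseudogene whose reads can come from its parent gene, complete the higher genes among the 10 of smallest p, and *mt-Nd1*, a complex I subunit (-0.84, adjusted p = 0.474), the lower. For each of these 10 genes, the means in Basal III cells of the same mice differed in the same direction. Healthy and CIA mice there averaged 124 and 50.0 CPM of *Nupr1*, 3303 and 2256 CPM of *mt-Nd1*, and 334 and 416 CPM of *Mrpl33*. Whether the differences are particular to fibroblasts was not tested. The cytoskeleton and S100 list had 15 of 22 members tested and a median of -0.19, beside 0.01 over all genes. Of these members, 4 were lower at an unadjusted p below 0.05, beside 4.3% of all genes. The list holds *S100a10* and *Lgals3* and was chosen with earlier results of these data known, so the count is a description only. Immediate early genes, which rise when tissue is dissociated, had 10 of 20 members tested, none at an unadjusted p below 0.05 and a median of 0.00, and 6 of 12 heat shock genes had a median of -0.26.

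**Figure D3:**
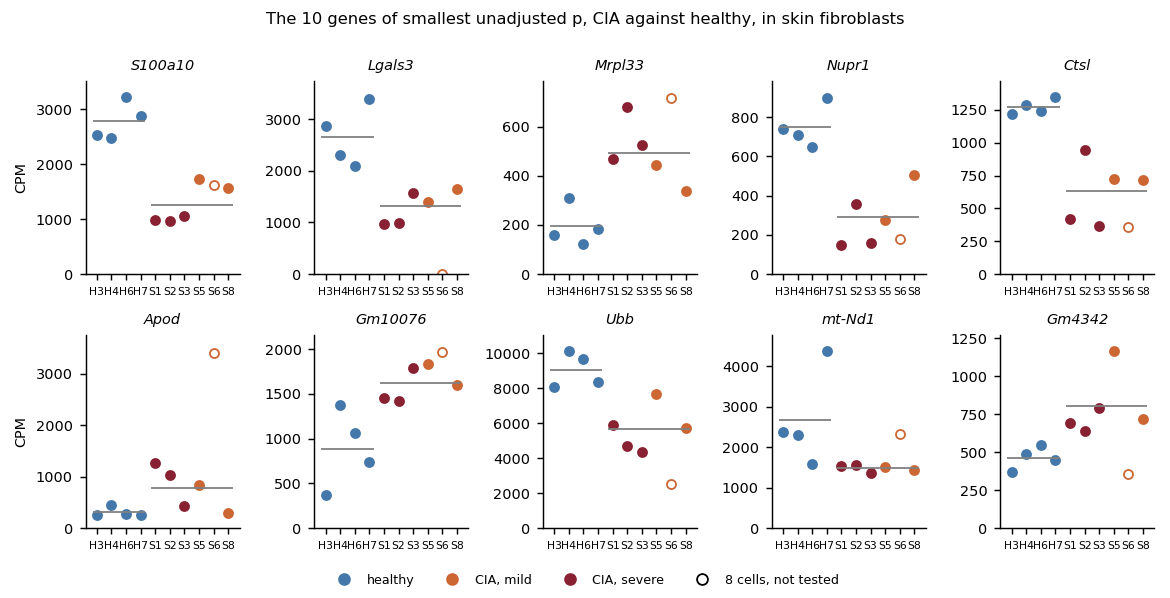
CPM (y axis, from 0) of the 10 genes of smallest unadjusted p for CIA against healthy, one point per mouse, with S6 (8 cells, not tested) open and grey lines at the means of tested mice. *S100a10*, *Lgals3*, *Nupr1*, *Ctsl* and *Ubb* are lower in all tested CIA mice than in any healthy mouse, and *Mrpl33* is higher, although no gene passed the edgeR threshold.

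Several genes of the inflammatory and acute phase response were high in single mice. The promoters of *Saa3*, *Cxcl1* and *Mmp3* are shown first, since these genes were higher in S2 than in the other tested CIA mice, although *Cxcl1* was highest in the healthy mouse H3. *Saa3* encodes an acute phase serum amyloid, *Cxcl1* a neutrophil chemokine and *Mmp3* the metalloproteinase described with the shares of cells. The 300 bases are from RefSeq (GRCm38.p6), 250 before and 50 after the gene's start, 5′ to 3′ on the gene's strand, with matches on either strand in capitals, to the kappaB motif of NF-kB for *Cxcl1* and to TGANTCA with C or G in its centre, the motif of AP-1, for *Mmp3*. The windows are chr7:46715627-46715926 (minus strand), chr5:90890995-90891294 (plus) and chr9:7445572-7445871 (plus).
Saa3: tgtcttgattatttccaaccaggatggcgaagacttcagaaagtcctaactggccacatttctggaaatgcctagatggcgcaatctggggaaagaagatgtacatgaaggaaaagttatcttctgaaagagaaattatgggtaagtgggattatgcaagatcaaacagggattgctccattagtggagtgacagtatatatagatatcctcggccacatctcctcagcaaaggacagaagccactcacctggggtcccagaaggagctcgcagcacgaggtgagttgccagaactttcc
Cxcl1: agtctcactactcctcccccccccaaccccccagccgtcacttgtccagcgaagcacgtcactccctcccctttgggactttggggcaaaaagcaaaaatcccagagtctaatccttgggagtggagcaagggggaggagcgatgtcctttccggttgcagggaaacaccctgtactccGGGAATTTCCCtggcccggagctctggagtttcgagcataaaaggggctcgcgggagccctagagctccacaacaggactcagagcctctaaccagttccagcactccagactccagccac
Mmp3: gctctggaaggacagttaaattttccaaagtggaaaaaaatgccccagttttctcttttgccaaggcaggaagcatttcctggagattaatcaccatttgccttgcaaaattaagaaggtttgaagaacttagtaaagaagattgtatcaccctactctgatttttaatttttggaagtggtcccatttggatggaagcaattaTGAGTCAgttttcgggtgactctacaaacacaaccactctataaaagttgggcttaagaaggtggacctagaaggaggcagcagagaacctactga
The capitals in *Cxcl1* are 2 overlapping kappaB matches, and the single AP-1 match of *Mmp3* starts at -46. The *Saa3* window held neither motif in these letters. Of 32851 promoters of this length, 2779 (8.46%) held a kappaB match and 1709 (5.20%) an AP-1 match, so these matches are a description only.

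*Saa3* was at 469, 13528 and 52.5 CPM in S1, S2 and S3, at 26.4 CPM in H7, and at 0 in H3, H4, H6, S5, S6 and S8. S2 held 1015 of the 1036 UMIs, spread over 29 of its 64 fibroblasts, so the level was not that of a single cell. In Basal III cells *Saa3* was at 521 CPM in S2, 748 in H7 and 413 in H3. *Cxcl5*, another neutrophil chemokine, was at 173 CPM in S1, 1693 in S2 and 1792 in S6 and at 0 in the other 7 mice. *Timp1*, an inhibitor of metalloproteinases, was at 296, 1893, 263 and 1792 CPM in S1, S2, S3 and S6, at 26.4 CPM in H7, and at 0 in the rest. These genes were therefore counted mostly in CIA mice. S2 was highest for *Saa3* and *Timp1*, and S6, which held no *Saa3*, was highest for *Cxcl5*. The S6 values of *Cxcl5* and *Timp1* rest on 10 UMIs each. No gene of this group had enough counts in enough mice for the test.

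*Ccl2*, a monocyte chemokine, was at 3809, 931, 2012 and 581 CPM in H3, H4, H6 and H7 and at 3576, 8769.7, 893, 1168 and 1435 CPM in S1, S2, S3, S5 and S8, with 6990.5 in S6. S2 was highest, but H3 exceeded all tested CIA mice except S2, and the groups overlap (log2 fold change 0.93, SE 0.65, adjusted p = 0.741). *Cxcl1* was at 5237, 576, 2459 and 1084 CPM in the healthy mice and at 1751, 4785, 893, 1168 and 633 CPM in the tested CIA mice, so its highest tested mouse was healthy. *Mmp3* was at 3491, 1019.7, 4719.8 and 3938 CPM in healthy mice and at 4365, 12968, 315, 4839 and 2911 CPM in tested CIA mice. S2 was the highest and S3 the lowest of all, both with severe arthritis. When every gene with a count was tested, 11 of 15661 were called higher and 1 lower. This fit drops the filter on low counts and so also tests genes counted in few mice. The main test called 0 genes, so these calls describe the counts and do not establish a change in CIA. The higher genes include *Saa3*, *Cxcl5*, *Timp1*, *Ptx3* and *Slpi*, whose UMIs lay mainly in S2. The other higher genes included the matricellular gene *Postn* (log2 fold change 2.59, edgeR adjusted p = 0.0193). *Cxcl12* (3.15, adjusted p = 0.00109), *Cxcl14* (2.80, adjusted p = 0.00204) and *Cpxm1* (2.38, adjusted p = 0.0409) were also among them. *BC028528* (3.46, adjusted p = 0.0117) and *Hbb-bs* (5.21, adjusted p = 0.0498) were the rest. The erythroid gene *Hbb-bs* was at 779 CPM in S5, 24.7 to 105 CPM in the other tested CIA mice and 0 in healthy mice. The one lower gene, *Wfdc18*, had 221 of its 297 UMIs in 1 cell of H7.

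Severe and mild arthritis were compared within CIA, S1, S2 and S3 against S5 and S8. Of 394 genes tested, edgeR called 2 higher (0.508%) and 3 lower (0.761%) in severe mice. These calls rest on which mild mice entered: with S6 added, an alternative chosen after the data were seen, 288 genes were tested and 0 were called in either direction.

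*Col1a2* was at 7891, 4998 and 8039.5 CPM in S1, S2 and S3 and at 2169 and 1899 CPM in S5 and S8, a log2 fold change of 1.92 (SE 0.38, adjusted p = 0.0445), while S6 stood at 19896 CPM and turned the fold change to -0.27. *Col1a1* (2.03, adjusted p = 0.0510), *Sparc* (1.46, adjusted p = 0.0510) and *Col3a1* (1.32, adjusted p = 0.0559) had values in the same direction just above the threshold. All 4 fibrillar collagens tested had an unadjusted p below 0.05 and a median of 1.69, beside 0.05 over all genes, of which 10.7% were higher at that p. With S6 *Col1a1* was at -0.094 and *Col3a1* at -0.41. The healthy mice did not line up with either class, since H4 was at 11837 CPM for *Col1a2* and H7 at 3409. Healthy H3, of the same experiment as the severe mice, was at 5819 CPM.

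*Prg4*, which encodes the joint lubricant lubricin, was at 345, 1399 and 2312 CPM in S1, S2 and S3 and at 0 in S5 and S8, at least 16.8-fold higher in the severe mice against a floor of 3 UMIs over the mild group. S6 was at 12368 CPM and H3 at 1322 CPM, the latter from 1 cell with 25 UMIs. The severe values also rest on few cells. In S1 1 cell held 12 of the 14 UMIs, in S3 1 cell held 34 of 44, and in S2 7 cells held 105. In all, 17 of 324 cells held the 258 *Prg4* UMIs. The high values thus fell in mice of both classes and in 1 healthy mouse.

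*Dkk2*, a Wnt antagonist of the upper dermis list, was at 24.7, 40.0 and 52.5 CPM in S1, S2 and S3 and at 501 and 422 CPM in S5 and S8 (log2 fold change -3.40, SE 0.60, adjusted p = 0.0445). The healthy mice H4, H6 and H7 were at 222, 224 and 211 CPM, and H3 was at 52.9. H3, S1, S2 and S3 held only 1, 1, 3 and 1 UMIs of *Dkk2*. A count of 3 UMIs in H3 would be 159 CPM, so H3 cannot be placed closely. *Igfbp3* was at 148, 93.3 and 52.5 CPM against 556 and 1139 CPM (-2.90, SE 0.57, adjusted p = 0.0445), with no UMI in S6 and 212 to 872 CPM in healthy mice. *Gpx1*, a glutathione peroxidase that removes hydrogen peroxide, was at 1677, 1599 and 2417 CPM against 5951 and 5865 CPM (-1.53, SE 0.31, adjusted p = 0.0445), with S6 at 1434 CPM. S6, mild by its label, was thus nearer to the severe mice than to S5 and S8 for *Gpx1*. With 3 UMIs making 538 CPM in S6, it cannot be ranked against the severe mice. It cannot be placed for *Igfbp3* or *Dkk2*, of which it held 0 and 1 UMI, since a count of 0 in this mouse allows up to 538 CPM (3 UMIs).

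Both tested genes of the hair follicle dermal list had an unadjusted p below 0.05 in the lower direction, beside 8.12% of all genes. *Inhba* was at 296, 213 and 420.4 CPM in S1, S2 and S3 and at 1279 and 1181 CPM in S5 and S8 (log2 fold change -1.96, SE 0.43, adjusted p = 0.0510). S6 was at 358 CPM from 2 UMIs and cannot be placed closely. *Enpp2*, the lysophosphatidic acid-producing enzyme autotaxin, was at 345, 173 and 210.2 CPM and at 667 and 886 CPM (-1.57, SE 0.49, adjusted p = 0.114). The agouti gene *a* was not tested here and stood at 74.0, 53.3 and 52.5 CPM in severe mice, 52.9 in H3, 612 and 379.7 in S5 and S8, and 344 to 547 in H4, H6 and H7. For *a* the 4 mice of the experiment of H3 were all below the other mice, healthy ones included, except for S6, which held no UMI. These low levels rest on few counts, with 1, 3, 4 and 1 UMIs in H3, S1, S2 and S3. The interferon-inducible *Ifi202b* (2.71, adjusted p = 0.0510) and the metallothionein *Mt1* (2.92, adjusted p = 0.0510) had values above the mild mice, and H3 was also the highest healthy mouse for both, at 899 CPM. Of 7 chemokine and cytokine genes tested, 0 passed the threshold and 6 were higher at an unadjusted p below 0.05, beside 10.7% of all genes, with a median of 1.88. The values of *Ccl2* and *Ccl7* depended on which mice entered: without S2, edgeR gave 1.02 in place of 1.88 for *Ccl2* (adjusted p = 0.344) and 0.74 in place of 1.58 for *Ccl7* (adjusted p = 0.454). With S6 they were 0.45 (adjusted p = 0.920) and 0.71 (adjusted p = 0.738).

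**Figure D4:**
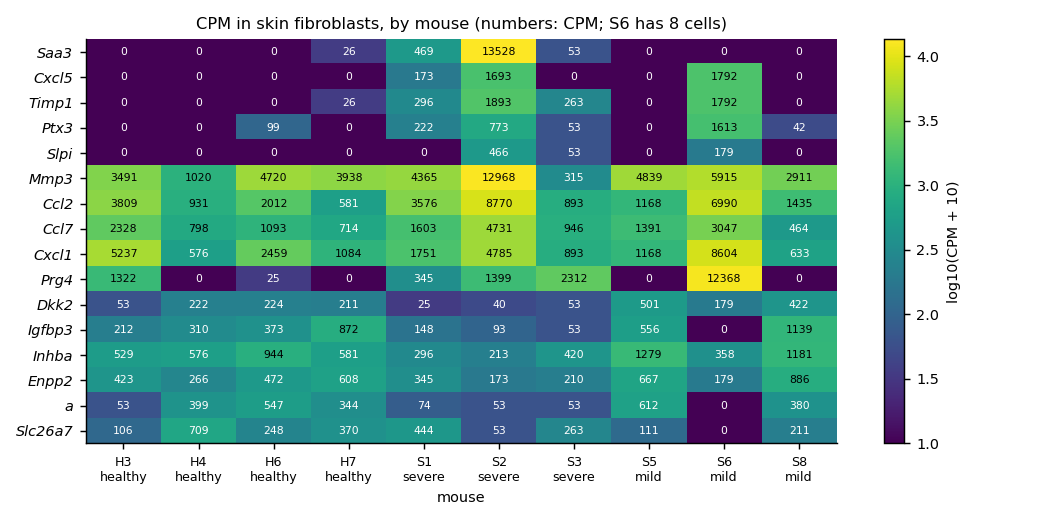
CPM of 16 genes (y axis) in the skin fibroblasts of each of the 10 mice (x axis), coloured by log10(CPM + 10) with the CPM printed in each cell. *Saa3* is bright in S2, *Prg4* in S2, S3, S6 and H3, and *Dkk2* and *a* are dark in H3 and the 3 severe mice.

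Skin fibroblasts were next set beside fibroblasts of joint and muscle, over 9, 6 and 8 samples of at least 10 cells (603 joint and 377 muscle fibroblasts in all). Both contrasts use the same skin samples, and the digestion enzyme differs with the organ and cannot be told apart from it. Of 1134 genes, 90 (7.94%) were higher and 185 (16.3%) lower in skin than in joint, and 99 (8.73%) higher and 136 (12%) lower than in muscle. The samples did not overlap for 28 higher (2.47%) and 23 lower genes (2.03%) against joint and for 14 in each direction (1.23%) against muscle. With the mouse as a replicate block the numbers were 52 and 132 for joint and 60 and 81 for muscle. The joint split depends on the scaling, with 183 higher and 131 lower by plain library size and 150 and 154 by DESeq2, and the median over all genes moves from -0.11 to 0.15 on the log2 scale. RNA of other cells also differed by organ: the medians over samples were 25, 16406 and 33604 CPM of erythroid genes, 26, 10056 and 10464 CPM of granulocyte genes, and 2280, 183 and 149 CPM of keratinocyte genes in skin, joint and muscle. Their part in the organ differences was not tested.

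*Slc26a7*, *a* and *Crabp1* were counted in skin and almost nowhere else, and only *Crabp1* belongs to a dermal list. Of the hair follicle dermal list 0 of 3 tested members were called against joint (median 0.42) and 2 of 3 were higher than in muscle (median 3.26), and of the upper dermis list 1 of 2, *Crabp1*, was higher in each contrast (medians 2.30 and 3.01). *Slc26a7* ran from 53.3 to 709 CPM in skin (median 248) and had no UMI in any joint or muscle sample, at least 62.7-fold and 32.6-fold higher (edgeR adjusted p = 7.65e-05 and 0.000307). The agouti gene *a* ran from 52.5 to 612 CPM (median 344) with no UMI elsewhere, at least 60.2-fold and 31.4-fold higher. *Crabp1*, a retinoic acid-binding protein of the papillary dermis, ran from 44.3 to 519.8 CPM (median 212) in skin, with 3 UMIs in all joint and 1 in all muscle fibroblasts (log2 fold changes 4.74, SE 0.76, and 6.04, SE 1.04). All 3 were found in every tested skin mouse, healthy or CIA, and in Basal III cells at 1.33, 9.32 and 13.3 CPM.

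Growth factor genes of skin followed. *Igfbp3* had a median of 310.3 CPM in skin, 24.2 in joint and 0 in muscle (log2 fold changes 3.59 and 4.70, adjusted p = 0.000357 and 0.00247), and *Igfbp2*, its family member, 173, 2.33 and 0 CPM (5.08 and 6.28, adjusted p = 8.93e-05 and 0.000196). Both were thus low in fibroblasts of joint and muscle, but Basal III cells of skin held them too. Thinned to 400 UMIs, *Igfbp2* was found in 8.02% of skin fibroblasts and 5.20% of Basal III cells, and *Igfbp3* in 7.72% and 3.80%. The part of keratinocyte RNA in these 2 genes was not tested. *Inhba* had medians of 576, 300 and 0 CPM and was called against muscle (4.09, SE 0.65, adjusted p = 4.74e-05). *Enpp2* was called against muscle too (3.26, SE 0.58, adjusted p = 0.000196). The other members of the Wnt, IGF and PDGF list leaned the other way: 7 of 13 tested were lower than in joint and 6 of 13 lower than in muscle, among them *Igfbp4*, *Igfbp5*, *Igfbp6* and *Igfbp7* in both.

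*Mmp3* ran from 315 to 12968 CPM in skin (median 3938), from 95 to 6615 CPM in joint (median 1620) and from 143 to 3571 CPM in muscle (median 675). It was called against muscle (log2 fold change 2.51, SE 0.54, adjusted p = 0.00145) and against joint (1.80, SE 0.54, adjusted p = 0.0174), the latter not with the mouse as a block (adjusted p = 0.113) nor without H3, H7 or S5 (adjusted p up to 0.0765). Within matrix turnover it was the only member higher than in joint, with 8 of 17 lower, among them the protease inhibitor *Timp2* and *Serpinf1*, an inhibitor of vessel growth (-2.33 against muscle, adjusted p = 2.98e-05).

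The structural matrix was lower in skin, most broadly against joint. Of the fibrillar collagens 5 of 7 tested were lower than in joint (median log2 fold change -1.52, 3 of 7 by plain library size) and 1 of 7 lower than in muscle (median -0.11). Of the proteoglycans 7 of 8 were lower than in joint (median -1.93) and 3 of 8 than in muscle (median -0.93). *Ogn*, which encodes osteoglycin, ran from 0 to 133 CPM in skin, 207 to 434 in joint and 589.8 to 2316 in muscle, ranges that do not overlap (-3.43, adjusted p = 7.25e-06, and -4.91, adjusted p = 2.33e-08). *Dcn* had medians of 4173, 12392 and 9650 CPM (-1.44, adjusted p = 0.00213, and -0.97, adjusted p = 0.0264, the latter up to 0.180 over 16 alternatives, the block among them). Type I collagen was an exception, as *Col1a2* against joint (-0.76, adjusted p = 0.155) and *Col1a1* against muscle (0.93, adjusted p = 0.128) did not pass.

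Genes of the deeper layers were low in skin against both organs. All 5 tested members of the lower dermis list (*Gpx3*, *Ly6a*, *Ly6c1*, *Mfap5* and *Mgp*) were lower in both contrasts, with medians of -2.11 and -2.87, and with the block as well. The fascia list had 4 and 5 of 6 lower and the complement list 5 of 8 in each. *Igfbp6* ran from 0 to 264 CPM in skin and from 549 to 1649 CPM in muscle (-3.10, adjusted p = 6.24e-06), and *Clec3b*, which encodes tetranectin, from 0 to 370.3 and from 618 to 1489 CPM (-2.83, adjusted p = 4.04e-05). *Gsn* had medians of 1085, 7243 and 9242 CPM in skin, joint and muscle (-1.81, adjusted p = 0.000794, and -2.76, adjusted p = 9.28e-06). Genes of MHC class I and II were lower than in muscle in 6 of 6 tested (median -2.40; 3 of 6 with the block) and in 0 of 6 against joint. *Lgals7*, a keratinocyte galectin, was at 212 to 1892 CPM in skin fibroblasts and had no UMI in muscle, beside the keratinocyte RNA of the skin sums given at the start.

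**Figure D5:**
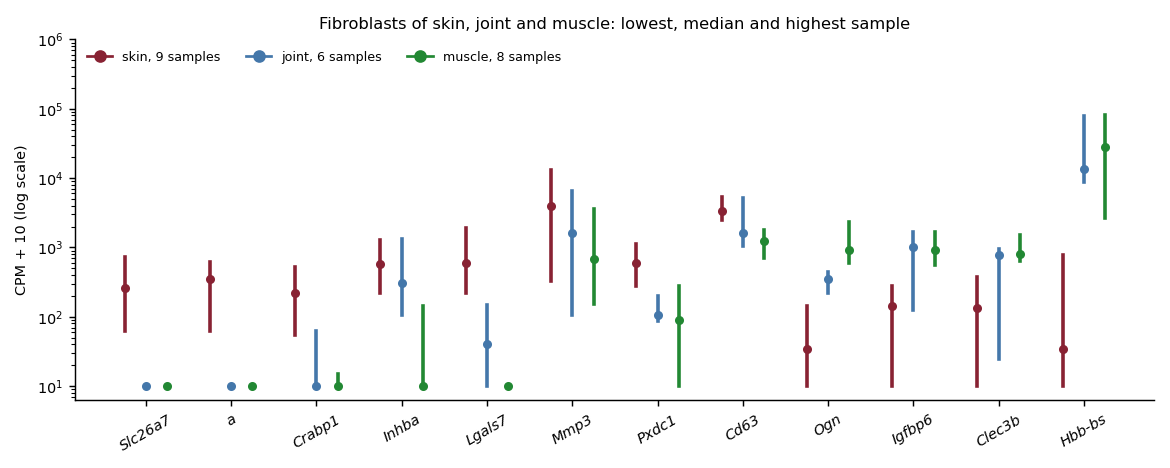
CPM + 10 on a log axis (y) of 12 genes (x) in fibroblasts of skin (9 samples), joint (6) and muscle (8); bars run from the lowest to the highest sample and points mark the median. *Slc26a7* and *a* lie at 0 CPM in joint and muscle, while *Ogn* and *Hbb-bs* are lowest in skin.

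Whether CIA moved the fibroblasts of skin differently from those of other organs was tested as an interaction. edgeR called 0 of 1134 genes for skin against joint and 0 for skin against muscle, with 79 (6.97%) and 49 (4.32%) at an unadjusted p below 0.05; DESeq2 called 1 and 0. The smallest adjusted p against joint was that of *Apod*, which in joint was at 791, 789.6 and 3804 CPM in healthy H3, H4 and H7 and at 433, 72.9 and 216 CPM in S1, S3 and S5. Joint values were thus lower in all 3 CIA mice, while in skin 3 of 5 tested CIA mice were above all healthy mice. The difference was 4.25 on the log2 scale (SE 0.87, adjusted p = 0.0542), with an adjusted p from 0.00617 to 0.932 over 16 alternatives. *S100a10* gave -1.06 (adjusted p = 0.630) against joint and -1.47 (adjusted p = 0.517) against muscle.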

How the data were processed

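Seq-Well libraries were processed by the authors with Drop-seq tools, STAR v2.5.3 and GRCm38. The submitters' processing notes also list mm9 and GRCh38; the deposited table holds no coordinates. The authors kept cells above minimums of reads, transcripts and genes and deposited counts (UMIs) of 34586 genes in 13240 cells, with an annotation of 12096 cells.

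Counts of the annotated skin fibroblasts were summed per mouse. Depth was 17979 to 75031 UMIs per tested mouse, which limits the tests to well-counted genes. Mice with at least 10 cells were compared by edgeR 4.0.16 (quasi-likelihood, TMM, filterByExpr defaults, Benjamini-Hochberg over all genes tested, threshold 0.05), the organs in 1 fit of 6 groups. For shares and depths an exact permutation test over mice, two-sided, was used. Python 3.11.15, numpy 2.4.6, scipy 1.17.1, pandas 2.3.3 and matplotlib 3.10.9 were used, and the fits were tested on simulated data. Alternatives were DESeq2 1.42.0, other scalings and filters, cell minimums, the experiment, a replicate block and leaving out each mouse.

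The members and the 37 gene lists (539 entries) were chosen with earlier results of these data known. Named genes were the markers, the most highly counted list members (up to 6 per matrix list and 3 per other list), the 10 genes of smallest p and up to 10 called per direction within skin, up to 12 called genes without overlap per direction between organs, up to 5 per interaction direction, and *Saa3*, *Slpi*, *Cytl1* and *Ifi27l2a*. *Cxcl5*, *Ptx3*, *Timp1*, *Wfdc18*, *BC028528*, *Cpxm1*, *Cxcl12* and *Cxcl14*, and list members named only as examples, were chosen after their values were seen.

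Organs with the same number come from the same mouse, so the mouse pairs the organ samples; the correlation of their deviations from group means ran from -0.147 to 0.180 over 18 pairs. Gene positions are from GENCODE M21 (GRCm38).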

Additional observations from a re-analysis of the deposited data

Results flagged for a closer look

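Within the healthy and the CIA mice, the highest or lowest mouse stood far from the others, by Dixon's criterion at the 95% level, for the fibroblast share and for 17 of 72 gene-and-group pairs over 36 genes. The rate of about 1 in 20 holds for normally spread values and for genes not picked by their values. It cannot be set against this number, since some counts were sparse and *Cxcl5*, *Ptx3* and *Timp1* were chosen after their values were seen. The share was 43.3% in H4.

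Mouse S2 stood above the other tested CIA mice for *Saa3* (13528 CPM), *Cxcl1* (4785 CPM), *Ccl7* (4731 CPM), *Timp1* (1893 CPM), *Cxcl5* (1693 CPM), *Ptx3* (773 CPM) and *Slpi* (466 CPM). These are secreted proteins of the acute phase, chemokines and inhibitors of proteases. S2 also gave the most cells (64) and UMIs (75031).

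Healthy mouse H3 stood above the other healthy mice for *Gsn* (5396 CPM), *Prg4* (1322 CPM) and *Ifi202b* (899 CPM). It stood below them for *Dkk2* (52.9 CPM, from 1 UMI). H3 is the only healthy mouse of the experiment that holds the severe mice.

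The remaining values were *Inhba* at 944 CPM and *Ptx3* at 99.4 CPM in H6, *Apod* at 443 CPM in H4, *Gm4342* at 1168 CPM in S5, and *Saa3* and *Timp1* at 26.4 CPM each in H7, where a single UMI was counted.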

How the results depend on the processing

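Over the results of single named genes and their alternatives, 1374 kept direction and side of the threshold, 44 lost and 38 gained a call, and 21 turned direction. Numbers of called genes, shares and depths are not in this tally, and causes were not tested. For CIA against healthy, edgeR's counts of 0 became 1 lower with DESeq2 and 11 higher and 1 lower without a filter on low counts, which also tests genes counted in 1 mouse; they stayed 0 without each mouse. Matrix genes turned direction without passing: *Col1a2* to 0.34 and *Sparc* to 0.089 with at least 5 cells per mouse, *Col1a1* to -0.46 and *Col3a1* to -0.36 with the experiment as a term, *Col1a1* to -1.52 and *Col3a1* to -0.79 in experiment CIA alone, *Col3a1* to -0.22 without cells of 2 or more keratinocyte UMIs and, chosen after the data were seen, to -0.059 without cells of 5 or more. Without each mouse, *Col1a1* ran from -0.21 to 0.87, *Col3a1* from -0.22 to 0.63, *Col1a2* from -0.50 to 0.21 and *Sparc* from -0.44 to 0.18. 

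For severe against mild, the 2 higher and 3 lower became 7 and 4 with DESeq2, 11 and 5 with RLE factors, 16 and 0 without the filter, and 0 and 0 with S6 (at least 5 cells, chosen after the data were seen), where *Col1a2* was at -0.27, *Prg4* at -1.65, *Col1a1* at -0.094 and *Col3a1* at -0.41. Without each mouse they ran from 0 to 39 higher and 0 to 17 lower, with 0 and 0 without S8 and 39 and 17 without S3. Where 1 mild mouse remained, it was assumed to vary like the others.

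No paired analysis was possible because the tested healthy and CIA mice of skin share only 1 number, which names different animals. Between organs the mouse is a true replicate block and gave 52 higher against joint (132 lower) and 60 higher and 81 lower against muscle. Against joint, DESeq2 gave 150 higher, plain library size 183 higher, and no filter 387 lower; without each mouse there were 61 to 128 higher and 94 to 201 lower, with 94 lower without S5. Against muscle, 90 were lower with at least 20 cells per sample, and 74 to 131 higher and 86 to 135 lower without each mouse, with 86 without S6. The joint interaction had 1 higher gene with DESeq2, 1 with plain library size, 1 with the replicate block, and 2 higher and 1 lower without the filter, and 0 to 2 higher and 0 to 1 lower without each mouse.

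The difference in share ran from -12.5 to -6.89 points without each mouse, -12.5 (exact permutation p = 0.0238) without S1. The difference in the median UMIs per skin fibroblast was -36.9 as a mean over cells (exact permutation p = 0.778) and -14.8 in experiment CIA alone (exact permutation p = 0.900), and 22.1 to 89.3 without each mouse. The mitochondrial difference ran from -2.34 to -0.735 points. Depth limits the test to 349 of 15661 counted genes.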
